A study of Mus musculus with 86 samples.

Results

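Connexins and proteins of the intercalated disc were followed in mouse hearts through the 9 genes Gja1, Gja5 and Gjc1 (connexins), Dsp, Pkp2, Jup and Dsg2 (desmosome), and Cdh2 and Ctnna3 (adherens junction), out of 18193 genes that the platform's annotation names by a single symbol. Every probe set carrying one of these symbols was taken, 27 of 45101 on the array: 6 for Gja1, 1 for Gja5, 2 for Gjc1, 3 for Dsp, 4 for Pkp2, 1 for Jup, 6 for Dsg2, 2 for Cdh2 and 2 for Ctnna3. Probe sets were taken by symbol alone, but the 9 genes were chosen with earlier results of these data known.

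The study hybridised heart RNA to 86 Affymetrix arrays. Mice of the inbred wild-type lines FVB and C57BL/6, of a line labelled B2KO, and of the wild-type hybrid line B6129SF2/J either stayed untreated or were infused with isoproterenol, which activates beta-adrenergic receptors, for 14 days (120 µg/g/day); the labels say nothing more of the B2KO genotype, give no age or sex, and name no vehicle infusion. The series' design text states that FVB and B2KO mice developed systolic dysfunction under the infusion and C57BL/6 mice diastolic dysfunction, that these 3 lines served as the derivation cohort, and that B6129SF2/J mice were a separate group for prediction. The 84 arrays compared comprised 12 treated and 10 untreated arrays of FVB, 10 and 11 of C57BL/6, 9 and 10 of B2KO, and 12 and 10 of B6129SF2/J. The extraction protocol names 20 mice for FVB, C57BL/6 and B2KO, infused and not infused in equal number, and does not say whether per line or in all. Even per line that is 10 infused mice, fewer than the 12 treated FVB arrays, so some mice may have given more than 1 array. The labels do not tie arrays to mice, so each n counts arrays, and each SE and p-value reflects how far arrays, not mice, scatter and may be too small.

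Cardiac muscle cells are joined end to end at the intercalated disc. There, gap junctions made of connexins pass current from cell to cell, desmosomes (a cadherin such as desmoglein-2, the linkers plakoglobin and plakophilin-2, and desmoplakin) anchor intermediate filaments, and adherens junctions (N-cadherin and catenins) anchor actin. In the mature heart desmosomes and adherens junctions are mixed into a common zone called the area composita. Inherited defects of its desmosomal proteins are a known cause of arrhythmogenic cardiomyopathy.

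Levels are given as log2 units with each array's own median at 0, so they compare a probe set across arrays but not one probe set with another. A difference of 1 is a doubling. Calls use limma with a Benjamini-Hochberg adjusted p under 0.05 over the 24878 probe sets whose highest group mean lay above 0; all 27 passed that filter, but Gja5 1422192_at passed only through untreated B2KO (group mean 0.21) and Pkp2 1420259_at only through untreated FVB (0.02). A difference in which that group is the higher side is given for these 2 as a value with no test, though both stand in the counts of calls.

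Treated B2KO replicates 4 and 9 held the same values to r = 0.99999976 and were averaged and counted once. Treated B2KO replicate 10 correlated with the other arrays at a median r of 0.573, against 0.831 to 0.963 elsewhere, and was left out; where a named call was lost with it kept, that is said beside the call. For strain marker probe sets FVB and B2KO were taken as 1 background. Over them treated FVB replicate 2 lay nearer to C57BL/6 than to that background (distance 0.98 against 2.81). Treated B2KO replicate 7 lay nearly as near to B6129SF2/J (1.78) as to that background (1.59). In 5 arrays the control for the 3′ end of Gapdh exceeded the control for its 5′ end by 2.06 to 7.43 log2 units, a sign of shortened RNA, against −0.39 to 1.77 in the others. Of these 5, 4 were untreated (B2KO replicate 8, C57BL/6 replicate 11, B6129SF2/J replicate 8 and FVB replicate 10) and 1 was treated B6129SF2/J replicate 7. All 10 cardiomyocyte markers, such as Myh6 and Tnnt2, were above the array median in all 8 groups.

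In each line at most 5 of the 27 probe sets passed the limma threshold under isoproterenol. In FVB none of 27 passed the limma threshold (1 did at an unadjusted p under 0.05), where 2.19% of all probe sets did. In C57BL/6 5 passed, 2 higher and 3 lower, against 29.0% of all probe sets (17.4% higher and 11.6% lower). In B2KO 1 passed, lower, against 0.225% of all (0.169% lower), and in B6129SF2/J 1, also lower, against 7.99% (4.41% lower). Averaged over the 4 lines 6 passed, 2 higher and 4 lower, where the background was 25.6% in either direction, 12.9% higher and 12.6% lower. The sign of the effect was the same in all 4 lines for 7 of 27 (5 below 0 and 2 above), against 30.3% of all probe sets (15.2% below and 15.1% above). The members' share of calls was thus 18.5% in C57BL/6, below the background, and 22.2% on average, near the background, while the B2KO and B6129SF2/J calls were a single probe set each. Nothing particular to the members is read from these counts. Of all calls in C57BL/6, 59.9% were higher; that share was 45.2% after quantile normalization and 37.2% with arrays centred on the median of the tested probe sets, which moved the median effect of all probe sets there from 0.08 to −0.10. On average over the lines the higher share was 50.6%, and 34.5% with arrays centred.

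**Figure D1:**
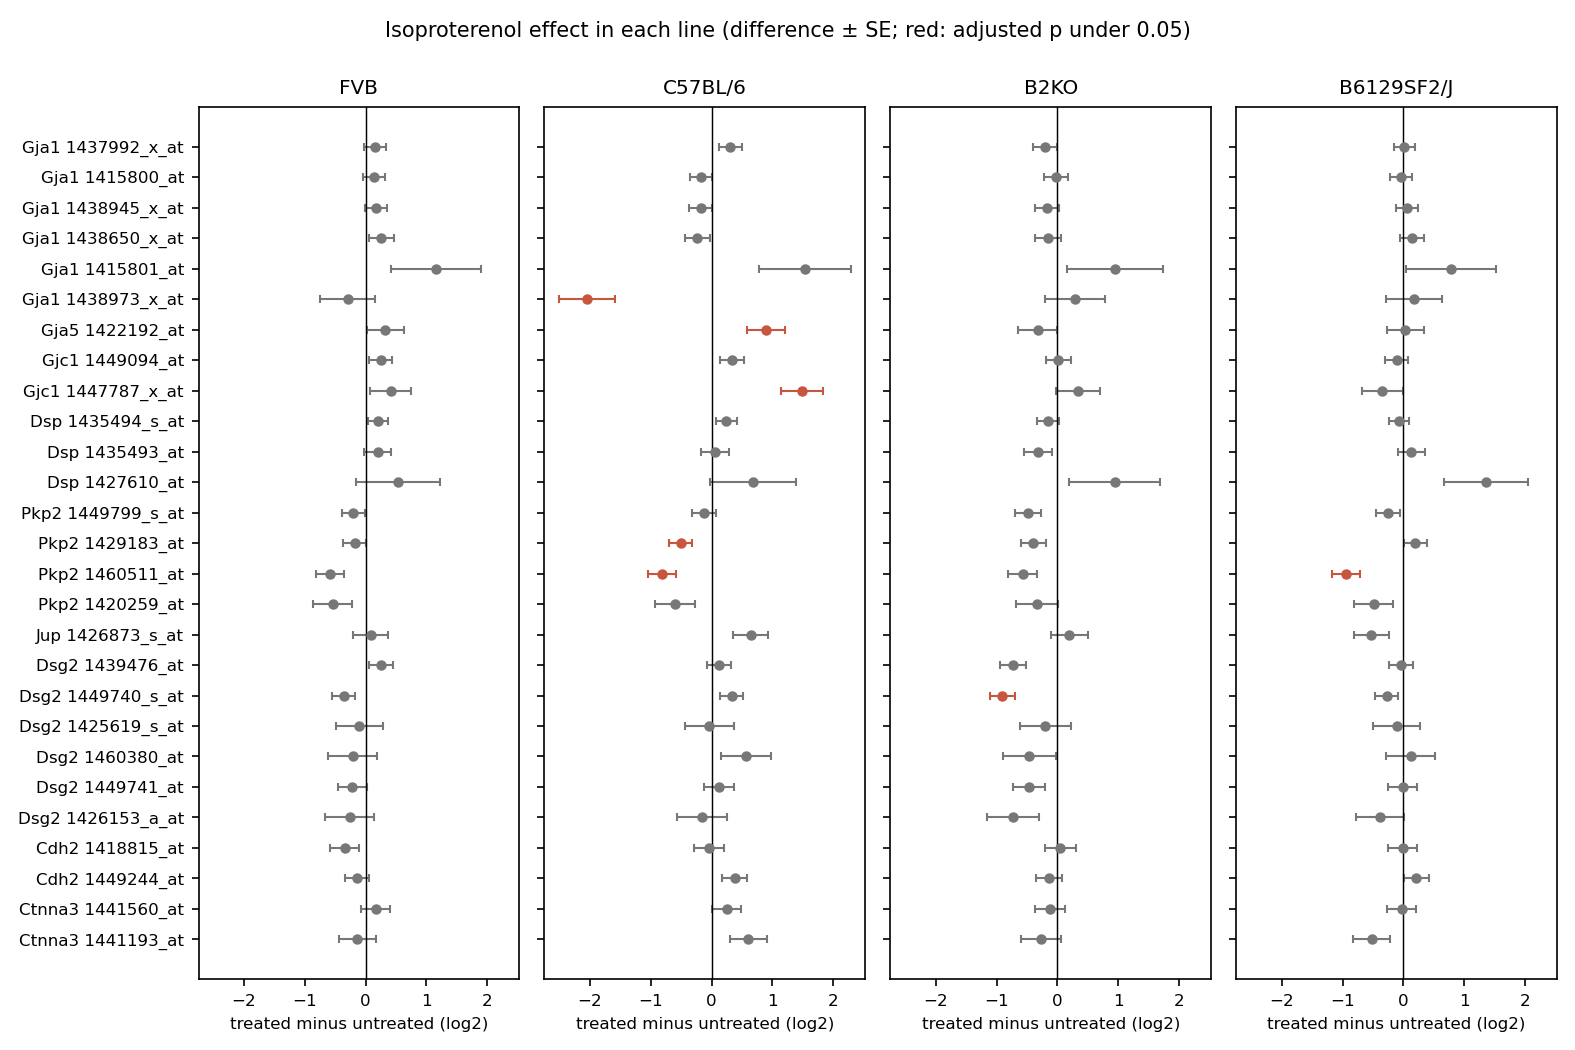
Isoproterenol effect (treated minus untreated mean, log2 units, ± SE from the limma fit) for each of the 27 probe sets, in 1 panel per line, with probe sets past the adjusted p threshold in red. The third Pkp2 probe set (1460511_at) lies left of 0 in all 4 panels, while the first 4 Gja1 probe sets lie within 0.31 of 0.

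Pkp2 was lower after treatment in its probe set 1460511_at, while its brighter probe sets moved less, as given below. The gene encodes plakophilin-2, the linker that binds desmosomal cadherins to desmoplakin. Its probe set 1460511_at had untreated levels, as lowest, median and highest, of 1.35, 2.85 and 3.03 in FVB, and 1.33, 1.87 and 3.63 after treatment. In C57BL/6 the values were 1.51, 2.42 and 3.20 untreated and 0.34, 1.57 and 2.95 treated. In both lines the treated median lay well below the untreated one, and the ranges overlapped. In B2KO the levels were 2.30, 3.08 and 3.96 untreated and 1.23, 2.52 and 3.00 treated. In B6129SF2/J they were 1.93, 2.97 and 3.51 untreated and 1.31, 1.92 and 2.58 treated. All 9 treated B2KO arrays and all 12 treated B6129SF2/J arrays lay under their line's untreated mean, as did 11 of 12 in FVB and 9 of 10 in C57BL/6.

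The Pkp2 1460511_at difference was −0.94 ± 0.23 (SE) in B6129SF2/J (limma adjusted p = 0.00358) and −0.81 ± 0.23 in C57BL/6 (limma adjusted p = 0.00546), which is 0.52 and 0.57 of the untreated level. It was −0.59 ± 0.23 in FVB (limma adjusted p = 0.188) and −0.58 ± 0.24 in B2KO (limma adjusted p = 0.408). Averaged over the lines it was −0.73 ± 0.12, 0.603 of the untreated level, with a limma adjusted p of 1.15e-06. The effects did not differ detectably among lines (limma adjusted p of the interaction 0.796). This average passed in all 11 alternative settings and with any single array left out. In FVB the probe set passed without treated FVB replicate 2, the array nearest C57BL/6 by strain markers and the highest treated FVB value, at −0.74 with a limma adjusted p of 0.0399.

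**Figure D2:**
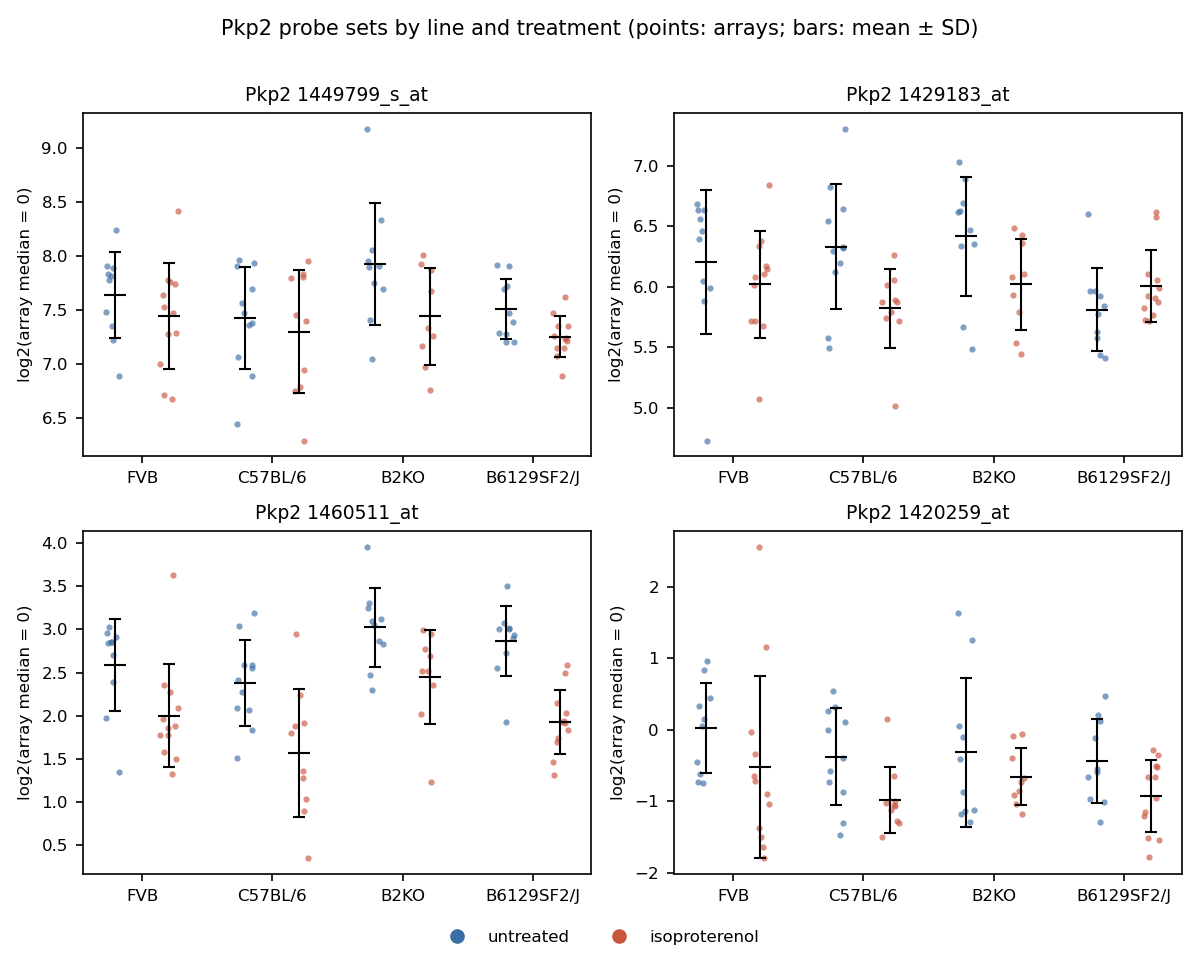
Levels of the 4 Pkp2 probe sets (log2, array median at 0) in every array, by line and treatment, with mean ± SD. Treated arrays centre below untreated ones in all 4 lines for 1460511_at, while 1429183_at in B6129SF2/J has a treated mean of 6.01 against 5.81 untreated.

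The other Pkp2 probe sets moved less. The brightest, 1449799_s_at, whose suffix marks probes shared by several transcripts, had group means of 7.43 to 7.92 untreated and 7.25 to 7.44 treated, with differences of −0.20 in FVB, −0.13 in C57BL/6, −0.48 in B2KO and −0.26 in B6129SF2/J, none past the threshold. Its average, −0.27 ± 0.10, had a limma adjusted p of 0.0384. It was −0.25 with treated B2KO replicate 10 kept (limma adjusted p = 0.0701), −0.20 without the 5 arrays of a high Gapdh difference (limma adjusted p = 0.112) and −0.19 with that difference as a covariate (limma adjusted p = 0.133), the limma adjusted p was 0.0664 with no filter on low values, and leaving out any 1 of 16 single arrays raised it to at most 0.0623. The dim 1420259_at, with group means of −0.98 to 0.02, had an average of −0.49. This average was −0.42 with treated B2KO replicate 10 kept and −0.37 with the Gapdh difference as a covariate. Untreated FVB, through which this probe set passed the filter, is on the higher side, so these are values with no test. Probe set 1429183_at fell in C57BL/6 from 6.33 ± 0.52 (SD, n = 11) to 5.82 ± 0.33 (SD, n = 10), a difference of −0.51 ± 0.19 (SE) with a limma adjusted p of 0.0399 and all 10 treated arrays under the untreated mean. It was +0.20 ± 0.19 in B6129SF2/J, and its average of −0.22 had a limma adjusted p of 0.0823. With treated B2KO replicate 10 in the fit the C57BL/6 limma adjusted p of 1429183_at was 0.276, and it exceeded 0.05 without any 1 of 9 single arrays. The 4 probe sets therefore differed in the size of the change, and 1 differed in sign in a single line. Over the 84 arrays, after each group's mean was subtracted, 1460511_at correlated with 1449799_s_at at r = 0.33 and with 1429183_at at r = 0.25, as a description.

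Dsg2, the desmosomal cadherin desmoglein-2, was lower after treatment in B2KO. Its probe set 1449740_s_at had lowest, median and highest levels of 5.56, 5.90 and 7.01 in untreated B2KO and 3.92, 4.91 and 5.97 in treated B2KO. In C57BL/6 the values were 4.36, 5.49 and 6.29 untreated and 5.38, 5.91 and 6.14 treated. The treated arrays were thus mostly low in B2KO and mostly high in C57BL/6, with overlapping ranges in both. The B2KO difference was −0.91 ± 0.20 (SE), 0.533 of the untreated level, with a limma adjusted p of 0.0242 and 8 of 9 treated arrays under the untreated mean. In C57BL/6 it was +0.33 ± 0.19 (limma adjusted p = 0.196), in FVB −0.36 ± 0.19 (limma adjusted p = 0.392) and in B6129SF2/J −0.27 ± 0.19 (limma adjusted p = 0.427). The untreated B2KO group held an array with a high Gapdh difference, replicate 8, whose Dsg2 level of 7.01 was the highest of its group; without it the B2KO difference was −0.77 with a limma adjusted p of 0.0754. Leaving out any one of treated B2KO replicates 2, 3, 11 or the averaged pair 4 and 9 also raised its adjusted p above 0.05. The limma adjusted p was 0.0603 with the Gapdh difference as a covariate and 0.332 with the B2KO arrays fitted alone.

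The Dsg2 1449740_s_at effect differed among the lines (limma adjusted p of the interaction 0.0115). The mean effect in FVB and B2KO, the lines whose mice developed systolic dysfunction, minus the effect in C57BL/6 was −0.96 ± 0.24, with a limma adjusted p of 0.00487; B2KO minus C57BL/6 alone was −1.24 ± 0.28 (limma adjusted p = 0.00454), a comparison in which 2 of 27 passed against 6.79% of all. Across the 27 probe sets 2 passed in that derivation comparison, against 11.4% of all, and 3 passed the test for any difference of effects, against 10.1%. The second bright Dsg2 probe set, 1439476_at, ran the same way in B2KO, from 6.59 ± 0.66 (SD, n = 10) to 5.86 ± 0.37 (SD, n = 9), a difference of −0.73 ± 0.21 (SE) with all 9 treated arrays under the untreated mean, but its limma adjusted p was 0.13, and 0.298 without the 5 arrays of a high Gapdh difference. With treated B2KO replicate 10 kept, it was −0.92 with a limma adjusted p of 0.0293. Over the 84 arrays both probe sets varied together (r = 0.68 after subtracting group means). Averaged over the lines 1449740_s_at was −0.30 ± 0.10 (limma adjusted p = 0.015, and 0.0583 without all 7 arrays in doubt by RNA or strain markers), and the average of 1439476_at was −0.10 ± 0.10 (limma adjusted p = 0.491). The dimmer Dsg2 probe sets 1425619_s_at, 1460380_at, 1449741_at and 1426153_a_at had averages of −0.11, 0, −0.15 and −0.38, none past the threshold.

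Desmoplakin, encoded by Dsp, ties the desmosomal plaque to desmin filaments, and its bright probe sets hardly moved. Group means of the level of 1435494_s_at, untreated then treated, went from 8.97 to 9.17 for FVB, from 8.99 to 9.24 for C57BL/6, from 9.21 to 9.05 for B2KO and from 9.53 to 9.45 for B6129SF2/J. The average effect was 0.05 with a 95% interval of −0.12 to 0.22 (limma adjusted p = 0.69). For 1435493_at the average was 0.02, with an interval of −0.21 to 0.24 (limma adjusted p = 0.936). These intervals leave room for average changes from −0.21 to 0.24. The third Dsp probe set, 1427610_at, ranged over 7.79 log2 units among arrays and is described below with the Gapdh difference.

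Jup, which encodes plakoglobin (gamma-catenin), a linker found in both kinds of junction, has 1 probe set, 1426873_s_at. Its lowest, median and highest levels were 4.50, 5.27 and 5.57 in untreated C57BL/6 and 5.09, 5.74 and 6.25 in treated C57BL/6. In B6129SF2/J they were 4.52, 5.79 and 6.31 untreated and 4.72, 5.08 and 5.77 treated. The median was thus higher after treatment in C57BL/6 and lower in B6129SF2/J, with overlapping ranges. The differences were 0.64 ± 0.29 (SE; limma adjusted p = 0.0856), with all 10 treated arrays above the untreated mean, and −0.53 ± 0.28 (limma adjusted p = 0.274), with 11 of 12 below it. The difference between these effects was −1.17 ± 0.41, with a limma adjusted p of 0.0408, which exceeded 0.05 when any 1 of 14 arrays was left out was 0.121 with treated B2KO replicate 10 kept, and was 0.0572 to 0.0623 with no filter, after quantile normalization or with arrays centred. In that comparison 3 of 27 passed, against 14.4% of all, and over the 6 pairs of lines 5 of 162 such differences passed among the 27 probe sets, against 4.34% of all. Untreated B2KO replicate 8 was at 1.14 for Jup, against 4.23 or more in the rest of its group; without that array the C57BL/6 effect, unchanged in size, had a limma adjusted p of 0.0106, since all groups share 1 estimate of the spread. In FVB and B2KO the effects were 0.08 and 0.19, with intervals of −0.49 to 0.65 and −0.41 to 0.80.

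The adherens junction genes gave no call for treatment. Cdh2 encodes N-cadherin, which holds the membranes of neighbouring cardiomyocytes together. Its probe set 1418815_at had effects, in the order FVB, C57BL/6, B2KO, B6129SF2/J, of −0.34, −0.04, 0.05 and −0.01, and 1449244_at had −0.14, 0.38, −0.14 and 0.21, with limma adjusted p from 0.153 to 0.987. The averages were −0.09 (95% interval −0.33 to 0.16) and 0.08 (−0.13 to 0.28). Ctnna3 encodes alpha-T-catenin, the catenin that binds plakophilin-2 in the area composita. Its probe set 1441560_at had an average of 0.06 (interval −0.17 to 0.30), and the dim 1441193_at, with group means of −0.68 to 0.60, had one of −0.08 (−0.39 to 0.23).

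Gja1 encodes connexin 43, the main gap junction protein of the working ventricle. Its 4 bright probe sets stayed level. The brightest, 1437992_x_at, had lowest, median and highest levels of 8.46, 8.92 and 9.53 in untreated FVB and 8.34, 8.98 and 10.10 in treated FVB. In C57BL/6 the values were 8.16, 8.91 and 9.96 untreated and 8.45, 9.27 and 9.80 treated. In B2KO they were 8.57, 9.17 and 9.85 untreated and 8.54, 8.89 and 9.67 treated, and in B6129SF2/J 8.75, 9.34 and 10.12 untreated and 8.84, 9.41 and 9.88 treated. Treated and untreated ranges overlapped over most of their length in each line. The average effects of 1437992_x_at, 1415800_at, 1438945_x_at and 1438650_x_at were 0.07, −0.02, −0.03 and 0, with 95% intervals of −0.12 to 0.25, −0.21 to 0.16, −0.22 to 0.16 and −0.20 to 0.21. The first of them reached a limma adjusted p of 0.0395 after quantile normalization, at 0.13. These probe sets varied together over the arrays (r of 0.67 to 0.93 between pairs), and probes marked _x_at may also bind other transcripts.

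The deviations of Gja1 1437992_x_at from its group means ran closely with those of Dsp 1435494_s_at (r = 0.88 over 84 arrays, the same without the 5 arrays of a high Gapdh difference), and its nearest genes in this respect were Atp5pb at 0.92 and Mdh2 at 0.91. The genes compared share the arrays and each array's scale, and the correlation is given as a description. Because Gja1 and Dsp varied together most closely among the members, the 250 bases before each gene's start are shown, 5′ to 3′ on the gene's strand, from RefSeq on GRCm38.p6 (5 of the 9 genes matched that table). Gja1 lies on chromosome 10, at chr10:56377050-56377299 on the plus strand, and Dsp on chromosome 13, at chr13:38151044-38151293 on the plus strand. Capitals mark matches, on either strand, to TGACG, the core of the cyclic AMP response element, to TGANTCA, the AP-1 site, and to GGGCGG, the Sp1 site.
Gja1: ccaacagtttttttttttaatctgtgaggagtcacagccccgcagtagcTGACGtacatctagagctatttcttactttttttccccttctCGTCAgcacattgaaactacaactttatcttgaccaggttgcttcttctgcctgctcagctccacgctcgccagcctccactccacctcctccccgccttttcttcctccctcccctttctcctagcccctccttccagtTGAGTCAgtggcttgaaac
Dsp: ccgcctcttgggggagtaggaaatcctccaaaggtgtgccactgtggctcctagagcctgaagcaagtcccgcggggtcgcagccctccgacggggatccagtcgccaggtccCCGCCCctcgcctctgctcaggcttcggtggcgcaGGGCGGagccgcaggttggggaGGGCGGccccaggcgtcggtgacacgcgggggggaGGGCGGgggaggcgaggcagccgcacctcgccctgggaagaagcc

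In Gja1 TGACG matched 2 times and TGANTCA 1 time, the latter 13 to 19 bases before the start. In Dsp GGGCGG matched 4 times, at 40 to 137 bases before the start. Of 32851 mouse windows of the same length, 17.8% hold TGACG, 6.75% TGANTCA and 32.7% GGGCGG. TGACGTCA (1.55% of windows), which contains TGACG, the T-box letters TCACACC (3.33%), CACGTG (6.02%) and TATAAA (12.4%) matched in neither window. The motifs that matched are thus different in the pair, and a match in letters is a description of the sequence.

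**Figure D3:**
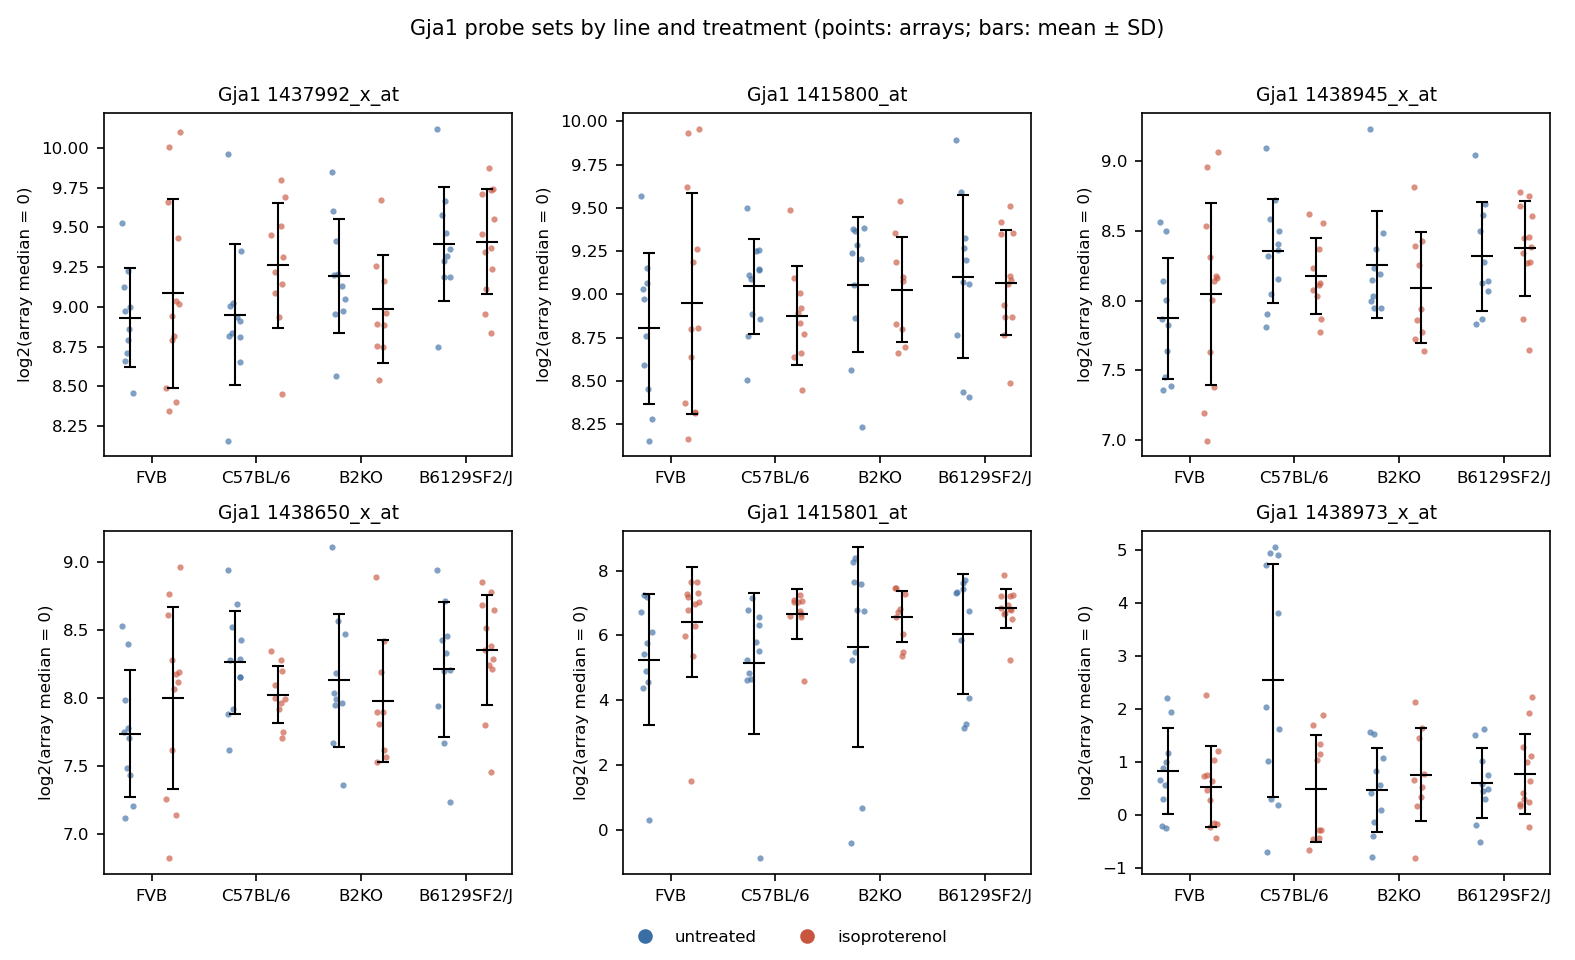
Levels of the 6 Gja1 probe sets (log2, array median at 0) in every array, by line and treatment, with mean ± SD. Treated and untreated arrays overlap in the first 4 panels, 1415801_at has single arrays far below their groups, and 1438973_x_at is high in part of the untreated C57BL/6 arrays.

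The other Gja1 probe sets did not follow these 4. Probe set 1438973_x_at was near the array median in 7 groups, with means of 0.47 to 0.83 and a highest array of 2.25, but had a mean of 2.54 ± 2.21 (SD, n = 11) in untreated C57BL/6. In that group 5 arrays lay at 3.81 to 5.06 and the other 6 at −0.71 to 2.03. Treated C57BL/6 arrays lay between −0.67 and 1.88, so that the group of untreated C57BL/6 arrays was itself split. The C57BL/6 effect was −2.04 ± 0.46 (SE; limma adjusted p = 0.00054), all 10 treated arrays lying under the untreated mean, and it passed in all 12 alternative settings. The derivation difference was 2.04 ± 0.57 (limma adjusted p = 0.0124), and the interaction had a limma adjusted p of 0.028, which exceeded 0.05 when any 1 of 9 C57BL/6 arrays was left out. Its correlation with the 4 bright probe sets, after subtracting group means, was −0.02 to 0.17.

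Gjc1 encodes connexin 45, which is expressed at low levels in working muscle and more in the conduction system. Its brighter probe set 1449094_at had an effect of 0.25 for FVB, 0.34 for C57BL/6, 0.02 for B2KO and −0.11 for B6129SF2/J, none past the threshold, and an average of 0.12 (95% interval −0.07 to 0.32). Probe set 1447787_x_at rose in C57BL/6. Its lowest, median and highest levels there were 0.45, 2.61 and 4.22 untreated and 3.13, 4.06 and 4.94 treated. The untreated arrays of C57BL/6 were spread widely and overlapped the treated ones from below. The difference was 1.49 ± 0.34 (SE), 2.81 times the untreated level, with a limma adjusted p of 0.000645 and all 10 treated arrays above the untreated mean. It was 0.41 in FVB, 0.34 in B2KO and −0.35 in B6129SF2/J, none past the threshold, and B6129SF2/J minus C57BL/6 was −1.84 ± 0.48 (limma adjusted p = 0.00534). Untreated C57BL/6 had the lowest mean of the 8 groups, 2.55. Untreated B6129SF2/J had the highest, 4.12, above untreated C57BL/6 by 1.58 (limma adjusted p = 0.000534), and treated C57BL/6 stood at 4.04. The interaction had a limma adjusted p of 0.0375, which exceeded 0.05 when any 1 of 12 arrays of C57BL/6 or B6129SF2/J was left out and was 0.0548 with treated B2KO replicate 10 kept and 0.0563 with no filter. The average, 0.47 ± 0.17, had a limma adjusted p of 0.0339. It was 0.38 with treated B2KO replicate 10 kept (limma adjusted p = 0.138) and 0.34 with the Gapdh difference as a covariate (limma adjusted p = 0.122), and the limma adjusted p was 0.0522 with no filter and up to 0.0579 without untreated FVB replicate 1, untreated C57BL/6 replicate 11 or untreated B2KO replicate 8. Deviations of the pair of Gjc1 probe sets correlated at r = 0.11. Those of 1447787_x_at ran against those of Gja1 1438973_x_at, with r = −0.40, and −0.54 without the 5 arrays of a high Gapdh difference. The interactions of both these probe sets lost their call without any 1 of untreated C57BL/6 replicates 1, 2, 4 and 6. They thus rest in part on the same arrays.

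Gja5 encodes connexin 40, the connexin of atrial muscle, of the fast conduction system and of arterial endothelium. Its only probe set, 1422192_at, was dim. Lowest, median and highest levels were −1.58, −0.57 and 0.73 in untreated FVB and −1.75, 0.26 and 1.54 in treated FVB, and in C57BL/6 −2.26, −1.23 and 0.06 untreated and −1.23, −0.13 and 0.38 treated. In B2KO they were −0.54, 0.03 and 1.10 untreated and −1.14, 0.08 and 0.66 treated, and in B6129SF2/J −1.88, −0.99 and 0.27 untreated and −1.65, −0.83 and −0.13 treated. Most arrays were thus below the array median, and the ranges overlapped in all lines. In C57BL/6 the difference was 0.89 ± 0.31 (SE; limma adjusted p = 0.0206), with 9 of 10 treated arrays above the untreated mean; with arrays centred it was 0.71 with a limma adjusted p of 0.0677, and without untreated C57BL/6 replicate 2 the limma adjusted p was 0.0506. In the other lines it was 0.32, −0.33 and 0.03.

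Other cell types moved with treatment in the same hearts, and their part in the members' values was not tested. In bulk heart RNA fewer cells of a type and less RNA per cell cannot be told apart. Marker counts are those of the main scaling, and the share of higher calls in C57BL/6 depended on the scaling, as described above. In C57BL/6 7 of 8 endothelial markers rose, with a range of the summed marker level of 6.64 to 8.01 untreated and 7.90 to 9.03 treated, as did 3 of 6 markers of arterial endothelium, Gja4, Hey1 and Unc5b, where 17.4% of all probe sets rose. In B2KO no endothelial marker passed, with summed levels of 7.17 to 8.37 untreated and 7.80 to 8.31 treated. Of 10 cardiomyocyte markers 5 rose in C57BL/6 (Tnni3, Actc1, Actn2, Myl2 and Mb), with summed levels of 13.2 to 14.4 untreated and 13.8 to 14.3 treated, and averaged over the lines 1 rose, Actc1 by 0.22. Averaged over the lines 7 of 9 fibroblast markers rose, against 12.9% of all probe sets, among them Postn by 2.07 and Col1a1 by 1.18. Of the atrial markers Nppa, Bmp10 and Pam rose on average, and 3 of 7 in all passed. Of the conduction markers 4 were tested: on average Tbx3 rose by 0.37 and Cacna1g fell by 0.66, while Isl1 was under the array median in all 8 groups.

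The Gapdh difference, a measure of RNA quality, had a correlation under −0.5 with 4 of the 27 probe sets over the 84 arrays, against 7.24% of all probe sets, and the 2 that ran closest with it, of Gja1 and Dsp, are given first. Gja1 1415801_at had lowest, median and highest levels of −0.42, 6.78 and 8.38 in untreated B2KO and 5.37, 6.74 and 7.47 in treated B2KO. In untreated C57BL/6 it was −0.89, 5.51 and 7.15, and 4.59, 6.90 and 7.26 treated. The low arrays were in the untreated groups for the most part. The treated median was not above the untreated one in B2KO, nor in B6129SF2/J (6.83 treated against 7.03 untreated). The average effect was 1.11 ± 0.38 (SE), 2.15 times the untreated level, with a limma adjusted p of 0.0236. With treated B2KO replicate 10 kept it was 0.94 with a limma adjusted p of 0.082. Without the 5 arrays of a high Gapdh difference, 4 of which were untreated, it was 0.60 with a limma adjusted p of 0.124, and with that difference as a covariate 0.56 with a limma adjusted p of 0.105. Across the 84 arrays its deviations ran against those of the Gapdh difference with r = −0.76, and −0.62 over the 79 arrays without those 5. Dsp 1427610_at had r = −0.82 and −0.68, an average effect of 0.88 ± 0.35 (limma adjusted p = 0.0574), and 0.42 with a limma adjusted p of 0.231 without the 5 arrays. For Dsg2 1460380_at the r was −0.59, and −0.45 without the 5 arrays, and for Jup 1426873_s_at −0.53 and −0.31. The Gja1 1415801_at and Dsp 1427610_at probe sets ran together (r = 0.90), and neither followed the bright probe sets of its own gene (r of −0.16 to 0.32 for Gja1, −0.22 and −0.26 for Dsp). For Gja1 1437992_x_at the r with the Gapdh difference was 0.27, and for Pkp2 1460511_at it was 0.36.

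**Figure D4:**
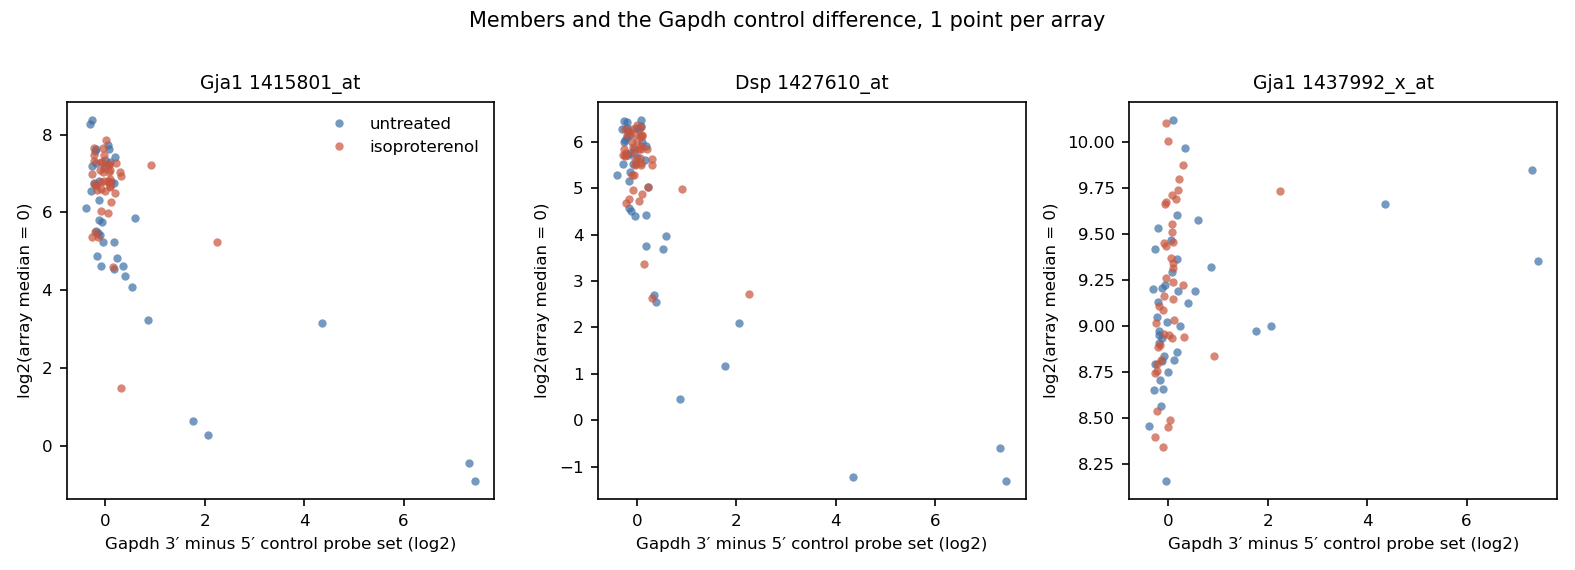
Levels of Gja1 1415801_at, Dsp 1427610_at and Gja1 1437992_x_at (log2, array median at 0) against the Gapdh 3′ minus 5′ difference (log2), 1 point per array, coloured by treatment. The first and second panels fall toward the right, where most arrays are untreated, and the third does not.

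Before treatment the lines themselves differed in several members. Of 27 probe sets 10 differed among the untreated lines, against 27.7% of all, and 24 of 162 pairwise differences passed, against 11.8% of all. Against C57BL/6 4 passed in FVB, 6 in B2KO and 6 in B6129SF2/J, where 18.6%, 16.4% and 16.1% of all probe sets did. B6129SF2/J differed from FVB in 6 (10.8% of all), which belonged to only 2 genes, Dsg2 and Dsp. It differed from B2KO in 2 (8.75% of all), 1 of them Gja5 1422192_at, which passed the filter only through untreated B2KO. Several probe sets counted here share a gene, and nothing particular to the members is read from these counts. Against C57BL/6, Gja1 1438973_x_at had differences of −1.71 in FVB, −2.06 in B2KO and −1.94 in B6129SF2/J. Their limma adjusted p was 0.00498, 0.000643 and 0.00168, and the untreated C57BL/6 arrays were split as described above. Where a line's own sequence differs under a probe, the signal can drop though the RNA does not, which was not tested. Dsp 1435493_at was 6.65, 7.63 and 8.52 (lowest, median, highest) in FVB, 7.48, 7.98 and 8.83 in B2KO, 7.07, 8.26 and 9.55 in B6129SF2/J and 7.95, 8.69 and 9.29 in C57BL/6. FVB was lower than C57BL/6 by a difference of −1.12 ± 0.23 (limma adjusted p = 0.000105), and no neighbours in that order differed past the threshold. The brighter Dsp probe set 1435494_s_at did not show this order: its untreated means were 8.97 in FVB and 8.99 in C57BL/6, and B6129SF2/J was above C57BL/6 by 0.53 (limma adjusted p = 0.0199). After quantile normalization that difference was 0.11 with a limma adjusted p of 0.487, and without untreated C57BL/6 replicate 6 or untreated B6129SF2/J replicate 3 the limma adjusted p rose to at most 0.0618.

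Dsg2 1439476_at was lowest in untreated FVB, at 4.92, 5.79 and 6.71, against 5.95, 6.65 and 7.16 in C57BL/6 and 6.16, 6.91 and 7.42 in B6129SF2/J. FVB was below C57BL/6 by a difference of −0.87 ± 0.20 (limma adjusted p = 0.000885), and B6129SF2/J was above FVB by 1.04 ± 0.21 (limma adjusted p = 0.000151). The Dsg2 probe sets 1449740_s_at, 1425619_s_at and 1460380_at were also higher in B6129SF2/J than in FVB, by 0.66, 1.39 and 1.21. The dimmer 1449741_at and 1426153_a_at were not, with means of 2.04 in B6129SF2/J against 2.10 in FVB, and of 0.32 against 0.42. With treated B2KO replicate 10 kept, the limma adjusted p of 1449740_s_at was 0.0836. Without the 5 arrays of a high Gapdh difference the value for 1425619_s_at was 0.80 with a limma adjusted p of 0.0666, and without untreated FVB replicate 10 alone it was 0.89 with a limma adjusted p of 0.0883. For 1460380_at leaving out any 1 of 15 arrays raised the limma adjusted p above 0.05, to at most 0.115, as did 7 alternative settings, to at most 0.0766. Cdh2 1449244_at was higher than in C57BL/6 by 0.65 in B2KO (limma adjusted p = 0.0198, and 0.063 without untreated C57BL/6 replicate 6) and by 0.75 in B6129SF2/J (limma adjusted p = 0.00707). With treated B2KO replicate 10 kept, the limma adjusted p was 0.123 and 0.0734. The other probe set, Cdh2 1418815_at, had untreated means of 7.51 to 7.75. Ctnna3 1441193_at was higher than in C57BL/6 in the other 3 lines, by 1.00 in FVB, 1.28 in B2KO and 0.94 in B6129SF2/J. Its levels lay near the array median. The limma adjusted p was 0.0623 for FVB without the 5 arrays of a high Gapdh difference and 0.0635 for B6129SF2/J with arrays centred. For B6129SF2/J it rose to at most 0.0683 without any 1 of 4 single arrays. The brighter Ctnna3 1441560_at had untreated means of 1.45 in FVB, 1.49 in C57BL/6, 1.72 in B2KO and 2.03 in B6129SF2/J. Among the untreated lines this probe set did not differ past the threshold (limma adjusted p = 0.157). Gja5 had untreated means of 0.21 ± 0.63 (SD, n = 10) in B2KO, −0.37 ± 0.80 (SD, n = 10) in FVB, −0.97 ± 0.71 (SD, n = 10) in B6129SF2/J and −1.16 ± 0.66 (SD, n = 11) in C57BL/6; as B2KO is the group through which it passed the filter, these are a description. Untreated B2KO and FVB did not differ past the threshold in any of the 27 probe sets, against 0.0884% of all.

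**Figure D5:**
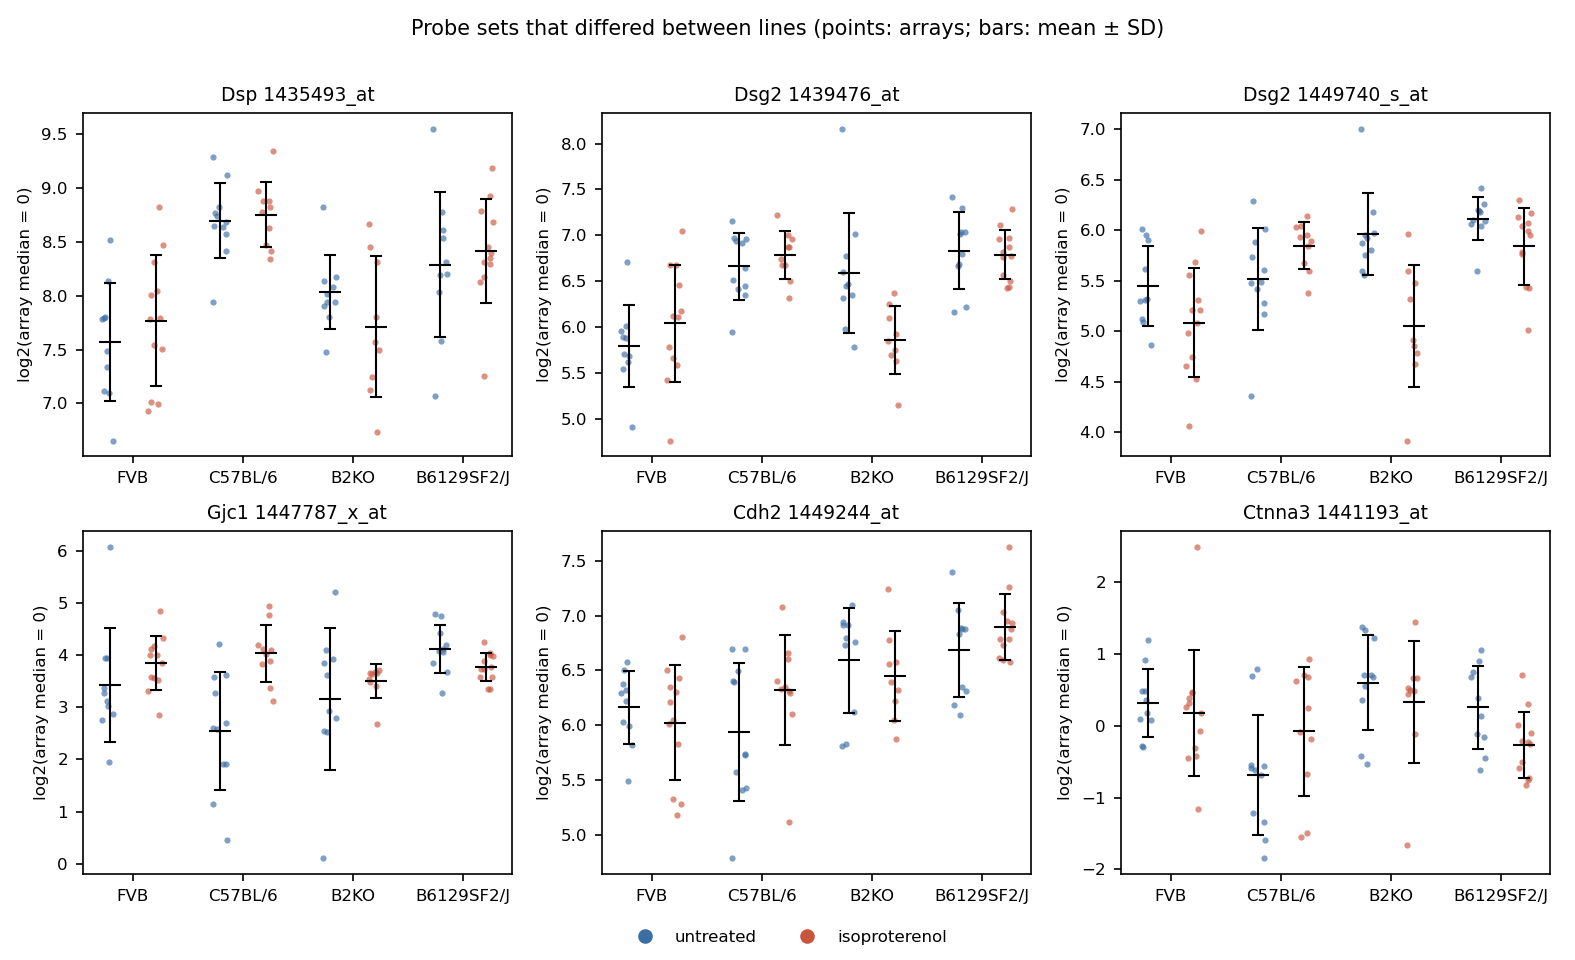
Levels of 6 probe sets of Dsp, Dsg2, Gjc1, Cdh2 and Ctnna3 (log2, array median at 0) in every array, by line and treatment, with mean ± SD. Dsp 1435493_at and Dsg2 1439476_at are lowest in untreated FVB, and Dsg2 1449740_s_at has a treated mean of 5.06 against 5.96 untreated in B2KO.

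Genes of the same structures, from lists written with the members, were read by their brightest probe set. The counts below stand against 12.9% of all probe sets higher and 12.6% lower on average, 17.4% and 11.6% in C57BL/6, and 2.19% in either direction in FVB, and nothing particular to a list is read from them. Of 7 other desmosome and intermediate filament genes tested, 1 rose and 4 fell on average, with a list median of −0.24 against −0.01 for all probe sets. Those that fell were Ppl, encoding periplakin (−0.47 ± 0.12, limma adjusted p = 0.00228), Pkp4, a relative of the plakophilins (−0.44 ± 0.11, limma adjusted p = 0.00169), Dsc2, encoding the desmosomal cadherin desmocollin-2 (−0.29 ± 0.09, limma adjusted p = 0.0138), and Perp. Tmem43, a nuclear envelope gene linked to arrhythmogenic cardiomyopathy, rose by 0.51 ± 0.13 (limma adjusted p = 0.00197). In C57BL/6 Dsc2 fell by 0.57, and Tmem43 and Des, encoding desmin, rose by 0.94 and 1.04. In FVB only Ppl passed, at −0.84, and none did in B2KO or B6129SF2/J.

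Of 16 other adherens junction and area composita genes, 5 rose and none fell on average (median 0.14, against −0.01 for all probe sets, of which 12.9% rose). They included Ctnnd1, encoding p120-catenin (0.46 ± 0.10, limma adjusted p = 0.000161), the actin regulators Vasp (0.55) and Zyx (0.53), and Cdh5 (0.67), the cadherin of endothelium, which is also an endothelial marker here. In C57BL/6 5 rose, and in FVB Ctnnd1 rose by 0.65. Of 8 disc scaffold and ion channel genes, 2 fell on average and none rose: Cxadr, the coxsackievirus and adenovirus receptor of the disc, by 0.67 ± 0.14 (limma adjusted p = 0.000135) and Ank3, encoding ankyrin-G, by 0.29. In C57BL/6 Cxadr fell by 1.08 and Tjp1, encoding ZO-1, which binds connexin 43, fell by 0.50, while Cav3 rose by 0.76. Of the other connexins and pannexins only 3 of 12 on the platform passed the filter: Panx1 rose on average by 0.53 and in C57BL/6 by 1.11, Gja4, the connexin 37 of endothelium, rose in C57BL/6 by 0.80, and Gja3 did not pass.

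Of 13 transcription factors known to act on connexin genes or the conduction system, 4 rose and 3 fell on average. Irx5 (−0.63 ± 0.12, limma adjusted p = 2.45e-05) and Irx3 (−0.57 ± 0.13, limma adjusted p = 0.000428), Iroquois factors that take part in cardiac conduction patterning, fell together with Hopx. Tbx20 (0.54 ± 0.09, limma adjusted p = 4.59e-06), Tbx5 (0.56), Tbx3 and Nkx2-5 rose. In C57BL/6 5 rose, among them Tbx3 by 1.18, Tbx5 by 1.17, Tbx2 by 1.14 and Nkx2-5 by 1.10, against 17.4% of all probe sets. In FVB Irx5 fell by 0.94 (limma adjusted p = 0.0105) and Tbx20 rose by 0.66 (limma adjusted p = 0.0278). In B6129SF2/J Irx5 fell by 1.09, Irx3 by 0.99 and Hopx by 0.85 while Tbx20 rose by 0.81. In B2KO no gene of these 5 lists passed.

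For the other members the genes whose deviations ran closest, over 84 arrays after subtracting group means, were Tm9sf2 (r = 0.89), Clns1a and Fnta for Pkp2 1449799_s_at, Mrps18c (0.85), M6pr and Hprt for Gjc1, and Pnpla2 (0.86), Scaf1 and Pdk2 for Jup. For Dsg2 they were Ciao2a (0.78), Ythdf3 and Grsf1, for Cdh2 Vcp (0.81), Taok1 and Psmc5, and for Ctnna3 Tmem41b (0.77), Med27 and Stambp. Gja5 had no close neighbour, the highest being Lrtm1 at 0.47, followed by Osr1 and Pde3a. For Jup the value fell to 0.70 without the 5 arrays of a high Gapdh difference. Among the members' main probe sets only Gja1 and Dsp appeared in each other's 3 nearest genes.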

How the data were processed

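RNA of mouse hearts was measured on 86 arrays. The deposited values are linear intensities, which the authors summarised with GCRMA per the submitters' processing notes (version not given in the sources used here); each array's median was 1 and none was 0 or below, and log2 was taken with no further normalization. No depth applies to arrays, and their number limits the precision. Of 45101 probe sets 64 controls were set aside; 34945 had 1 symbol, 932 several and 9160 none, and of those with 1 symbol 99.4% could be given their current RefSeq symbol (GRCm38.p6) through the gene number.

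limma 3.58.1 in R 4.3.3 fitted 1 linear model over the 8 groups with empirical Bayes moderation, two-sided, after a filter on the highest group mean (above log2 0). Comparisons were the effect in each line, their average, the mean of FVB and B2KO minus C57BL/6, and differences among lines. An array failed at a median r under 0.7, and a Gapdh difference over 2 or a strain distance ratio near or above 0.9 over 200 marker probe sets put an array in doubt. The script was tested on simulated data.

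The members and lists were chosen with earlier results of these data known. All members are named; up to 4 genes per list and effect are the largest changes past the threshold, each by its brightest probe set; the 3 genes nearest each member's main probe set are named. Perp, Hopx, Tbx3 and Nkx2-5 averages and marker genes were named after their values were seen. Alternatives were other filters and scalings, moderation, a replicate block, 1 probe set per gene, each line alone, arrays left out, and the Gapdh difference as a covariate. Leaving out the 5 arrays of a high Gapdh difference alone was chosen after seeing the data.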

Additional observations from a re-analysis of the deposited data

Results flagged for a closer look

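Of 135 combinations of probe set and group with 9 or 10 arrays, 24 held an array set apart from the rest by a gap too large for Dixon's 95% criterion, 17 low and 7 high; chance gives about 1 in 20. The most frequent was untreated B2KO replicate 8, an array with a Gapdh 3′ minus 5′ difference of 7.31. It was high for Gja1 1438945_x_at (9.23), Dsp 1435493_at (8.83), Dsg2 1439476_at (8.16) and Dsg2 1449740_s_at (7.01). It was low for Gjc1 1447787_x_at (0.099), Jup 1426873_s_at (1.14) and Cdh2 1418815_at (4.51).

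Untreated FVB replicate 10, with a Gapdh difference of 2.06, was low for Gja1 1415801_at (0.29), Pkp2 1429183_at (4.73) and Dsg2 1425619_s_at (−0.92), and high for Gjc1 1447787_x_at (6.08). Treated C57BL/6 replicate 8 was low for Gja1 1415801_at (4.59) and Dsp 1427610_at (3.37). Treated C57BL/6 replicate 7 was low for Dsp 1435494_s_at (8.57), Pkp2 1429183_at (5.01) and Cdh2 1449244_at (5.12).

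Among the other arrays, Gjc1 1447787_x_at was low in the averaged treated B2KO replicates 4 and 9 (2.67), and Dsp 1435494_s_at in untreated FVB replicate 2 (8.11). Pkp2 1429183_at was high in untreated B6129SF2/J replicate 3 (6.60) and Pkp2 1420259_at in treated C57BL/6 replicate 3 (0.15). Dsg2 1449740_s_at was low in untreated B6129SF2/J replicate 2 (5.60), Dsg2 1460380_at and Ctnna3 1441560_at in untreated B6129SF2/J replicate 1 (1.78 and 0.49), and Ctnna3 1441193_at in treated B2KO replicate 3 (−1.66).

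The isoproterenol effect differed among the 4 lines for Gja1 1438973_x_at (limma adjusted p of the interaction 0.028), Gjc1 1447787_x_at (limma adjusted p 0.0375) and Dsg2 1449740_s_at (limma adjusted p 0.0115).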

How the results depend on the processing

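No member's called difference changed direction under any alternative run; of the calls recomputed outside single-array omissions 571 stayed past the threshold and 63 did not, and the cause was not tested. Counts of members past the limma threshold moved as follows. With treated B2KO replicate 10 kept, 2 passed in B2KO and 2 on average. After quantile normalization 5 passed the test for any difference of effects. With only the brightest probe set of each gene, which leaves 9 probe sets, the counts were 1 in C57BL/6, 0 in B2KO, 0 in B6129SF2/J, 1 on average, 0 in the derivation difference, 0 for any difference of effects, 3 for any untreated difference, 1 pairwise difference of effects and 6 pairwise untreated differences. With each line fitted alone, 0 passed in B2KO and 2 in B6129SF2/J. When treated FVB replicate 2 and treated B2KO replicate 7 were left out, 1 passed in FVB. Without all 7 arrays in doubt 1 passed in FVB, 0 in B2KO, 3 on average, 4 in the derivation difference and 8 pairwise differences of effects. With the Gapdh difference as a covariate 0 passed in B2KO and 2 on average. Without the 5 arrays of a high Gapdh difference, an alternative chosen after seeing the data, 0 passed in B2KO, 4 in the derivation difference and 9 pairwise differences of effects. Leaving out 1 array at a time gave 0 to 1 in FVB (1 without treated FVB replicate 2), 4 to 6 in C57BL/6, 0 to 1 in B2KO, 1 to 1 in B6129SF2/J, 4 to 7 on average, 2 to 4 in the derivation difference, 1 to 4 for any difference of effects, 9 to 12 for any untreated difference, 4 to 9 pairwise differences of effects and 20 to 30 pairwise untreated differences.

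Same-numbered arrays of different groups did not deviate together (38 pairs, r of −0.20 to 0.32, median 0.0029), so the numbers pair nothing; with a replicate block (consensus correlation −0.0037) the counts were 0 in FVB, 5 in C57BL/6, 1 in B2KO, 1 in B6129SF2/J and 6 on average.

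Over all probe sets, 546 passed in FVB, against 1375 after quantile normalization, 1053 with arrays centred, 284 with treated B2KO replicate 10 kept and 200 with the line alone. In B2KO 56 passed, against 187, 132, 211 and 1, and in B6129SF2/J 1987, against 3060 after quantile normalization, 1258 with that array kept and 5327 alone. Gja5, Pkp2 1420259_at and Ctnna3 1441193_at lay near the array median, where the signal limits what the arrays can show.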
